A study of Mus musculus and Homo sapiens with 12 samples.

Results

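The 10 genes described here are TGFB1, TGFB2, TGFBR1, TGFBR2, SMAD2, SMAD3, SMAD4, SMAD6, SMAD7 and SKIL, which carry the TGF-β signal from its ligands to the nucleus or hold it back. They were chosen by name, as 10 of the 62663 genes of the GENCODE 44 annotation of GRCh38 and, in title case, 10 of the 49939 genes of the RefSeq annotation of GRCm38. At each gene, and in the 10 kb on either side of it, the regions of 12 CUT&Tag peak lists were collected. CUT&Tag cuts and tags the DNA next to a histone mark by means of a transposase that an antibody carries there. The marks were butyryl lysine (Kbu) and acetyl lysine (Kac) at H3K18 and H4K12, where the acetyl marks were the study's controls for the butyryl marks. CCD841 cells, a human line that the labels give as normal colon epithelium, were treated with 1 mM sodium butyrate (NaBu) for 12 to 16 h by the labels, and gave 2 libraries for H3K18bu and 2 for H4K12bu. No untreated CCD841 library and no CCD841 acetyl library was analysed here, so the human values describe treated cells and compare no treatment. Mouse libraries came from the large intestine of male CETP-ApoB-100 transgenic mice, with tissue of 2 mice per condition. By their labels the 2 H3K18ac and 2 H4K12ac libraries came from mice on a high fat, high sucrose diet, and the 2 H3K18bu and 2 H4K12bu libraries from mice given the same diet with 5% arabinoxylan, a dietary fiber. The study's methods describe the dietary groups otherwise, with a low fat control group and fiber given to the high fat group, so the diet of the Kac mice is uncertain. By the labels mark and diet changed together between Kac and Kbu and cannot be told apart. Replicates of a mark may share mice or a culture, and with 2 mice per condition H3K18 and H4K12 libraries of a condition may share mice as well, so the spread between libraries may be technical.

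TGF-β ligands such as TGFB1 and TGFB2 are secreted in a latent form and, once released, bind TGFBR2, a serine/threonine kinase receptor that then phosphorylates TGFBR1. TGFBR1 phosphorylates SMAD2 and SMAD3, which join SMAD4, enter the nucleus and bind short GC-rich and CAGA-like elements. SMAD6 and SMAD7 are inhibitory SMADs that are themselves induced by the pathway, and SKIL (SnoN) is a corepressor that holds SMAD complexes inactive until it is degraded. In the colon the pathway restrains the growth of epithelial cells, and TGFBR2 and SMAD4 are often lost in colorectal cancer.

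The promoters below, 250 bases before to 50 after the start of the MANE Select transcript (the reference transcript agreed for a coding gene), are shown because they hold the start-site regions described below. The sequences run 5′ to 3′ along the gene, from GRCh38. Capitals mark the bases that lie inside an H3K18bu region of both CCD841 replicates. The last sequence is the centre of the strongest H3K18bu region at any of the 10 genes, in an intron of SMAD3.
TGFBR2, chr3:30606351-30606650, plus strand: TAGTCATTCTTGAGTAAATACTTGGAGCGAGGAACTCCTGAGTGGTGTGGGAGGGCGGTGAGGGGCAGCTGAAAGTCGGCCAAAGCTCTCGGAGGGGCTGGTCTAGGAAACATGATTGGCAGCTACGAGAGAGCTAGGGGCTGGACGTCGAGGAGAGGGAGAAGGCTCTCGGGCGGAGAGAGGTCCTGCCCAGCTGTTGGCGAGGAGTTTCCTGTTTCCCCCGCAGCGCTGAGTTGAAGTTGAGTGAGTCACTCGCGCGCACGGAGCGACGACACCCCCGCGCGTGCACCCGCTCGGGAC
TGFBR1, chr9:99104863-99105162, plus strand: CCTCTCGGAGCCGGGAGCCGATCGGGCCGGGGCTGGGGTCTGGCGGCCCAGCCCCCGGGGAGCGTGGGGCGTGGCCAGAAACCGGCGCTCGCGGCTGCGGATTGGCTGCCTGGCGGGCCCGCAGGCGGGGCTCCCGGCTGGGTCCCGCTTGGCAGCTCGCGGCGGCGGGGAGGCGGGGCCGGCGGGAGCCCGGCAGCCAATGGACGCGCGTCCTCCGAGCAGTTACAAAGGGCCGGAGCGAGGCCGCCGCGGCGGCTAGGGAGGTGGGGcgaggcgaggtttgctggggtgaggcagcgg
SKIL, chr3:170357465-170357764, plus strand: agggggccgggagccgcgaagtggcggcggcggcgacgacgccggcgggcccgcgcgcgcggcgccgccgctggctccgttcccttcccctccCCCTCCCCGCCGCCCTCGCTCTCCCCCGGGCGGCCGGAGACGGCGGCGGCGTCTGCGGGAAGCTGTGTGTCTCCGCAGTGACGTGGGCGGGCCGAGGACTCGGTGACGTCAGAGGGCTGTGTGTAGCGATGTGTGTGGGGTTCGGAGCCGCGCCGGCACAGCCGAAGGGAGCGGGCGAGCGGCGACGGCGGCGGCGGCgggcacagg
SMAD3 intron, chr15:67178697-67178996, plus strand: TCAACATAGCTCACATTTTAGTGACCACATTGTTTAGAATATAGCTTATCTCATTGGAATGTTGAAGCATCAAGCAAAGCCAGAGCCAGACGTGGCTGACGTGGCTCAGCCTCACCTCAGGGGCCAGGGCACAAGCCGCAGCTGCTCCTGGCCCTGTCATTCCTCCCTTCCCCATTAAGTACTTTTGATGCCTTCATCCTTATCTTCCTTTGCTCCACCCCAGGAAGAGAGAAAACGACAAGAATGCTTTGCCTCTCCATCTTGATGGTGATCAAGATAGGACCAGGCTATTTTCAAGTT

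All 300 bases of the TGFBR2 promoter lay inside H3K18bu regions of both replicates, and 177 of them also lay inside H4K12bu regions of both. The H3K18bu regions covered 269 bases at TGFBR1, 198 at SKIL and 225 at SMAD4, whose promoter is not printed. At SKIL the covered bases were the later part of the window, and the 52 CG pairs of its promoter were among the highest counts, since 99.1% of the 19061 MANE Select promoters held as many or fewer. The TGFBR1 promoter held 40 CG pairs, SMAD4 28 and TGFBR2 23, against a median of 23 over all promoters. The SMAD3 intron sequence held 4 CG pairs, against a median of 3 over the centres of 108536 H3K18bu regions found in both replicates. The TGFBR2 promoter holds TGAGTCA, beginning 6 bases before the start, a match to TGANTCA (the AP-1 site), which 5.42% of human promoters and 14.8% of H3K18bu region centres hold on either strand. A match of letters is a description of the sequence and says nothing of a factor bound there.

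The palindrome GTCTAGAC, a sequence to which SMAD3 and SMAD4 are known to bind, was present in the SMAD6 promoter of human and the Smad6 promoter of mouse, and in no other promoter read for the 10 genes. It is shown in capitals with 30 bases on either side, from GRCh38 and from the RefSeq table of GRCm38.p6.
SMAD6, chr15:66702194-66702261, plus strand: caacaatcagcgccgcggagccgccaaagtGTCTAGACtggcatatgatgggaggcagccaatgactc
Smad6, chr9:64022026-64022093, minus strand: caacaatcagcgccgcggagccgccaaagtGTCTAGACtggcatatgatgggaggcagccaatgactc
The stretches were identical in all 68 bases, within a run of 137 bases common to both promoters. The palindrome began 12 bases before the MANE Select start in human and 4 bases before the start that the promoter table uses in mouse, which lies inside the longest extent of the gene. It was found in 0.199% of human promoters, 0.213% of 32851 mouse promoters and 0.313% of H3K18bu region centres. No H3K18bu or H4K12bu region lay at this site in either CCD841 replicate, the nearest being 2997 bases from the SMAD6 start.

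Each peak list was made from a single library, and its overlapping peaks were joined to regions. The 4 CCD841 lists held between 299296 and 299720 peaks, at or near the limit of 300000 set for a list, which joined to 211088 and 229104 H3K18bu regions and 207129 and 282656 H4K12bu regions. The pileup, the number of read fragments stacked at the summit of a peak, had a median of 15 and 12 for H3K18bu (first and second replicate) and of 15 and 7 for H4K12bu. The second H4K12bu replicate was thus the shallowest, and 54.7% of its regions had a q below 0.05, against 100% in the other 3 lists. Only regions that overlapped a region of the other replicate are counted below and called shared, each given as the joined extent of the overlapping regions. Markers did not set the labelled epithelial cell type apart: an H3K18bu region was shared at 10 of 12 epithelial genes, 10 of 10 mesenchymal genes, 4 of 5 smooth muscle genes, 5 of 5 immune genes and 3 of 4 endothelial genes. At start sites the H3K18bu count was 1 of 12 epithelial (VIL1, of the brush border), 2 of 10 mesenchymal (COL1A2 and FN1), 2 of 5 smooth muscle (ACTA2 and ACTG2) and 2 of 4 endothelial (CDH5 and VWF). For H4K12bu it was 2 of 12 epithelial (the neighbouring keratin genes KRT8 and KRT18, with the same −log10 p of 5.05 and 4.13), 1 of 10 mesenchymal, 2 of 5 smooth muscle and 1 of 4 endothelial. The defining epithelial genes CDH1 and EPCAM had neither mark there. The CCD841 label is therefore taken from the submitters, and the bearing of cell type on the counts below was not tested.

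In butyrate-treated CCD841 cells each of the 10 genes held a region of H3K18bu and a region of H4K12bu in both replicates. The genes together held 89 shared H3K18bu regions and 88 shared H4K12bu regions. With q below 0.05 in both replicates 89 and 59 were left, and TGFBR1 then held no shared H4K12bu region. Among all protein-coding genes 75.8% held a shared H3K18bu region in the same window and 76.6% a shared H4K12bu region, so the presence of a region alone sets these genes little apart. Most of the regions lay in introns, 63 of H3K18bu and 61 of H4K12bu, while 4 and 1 lay within 1 kb of the start of the gene, 11 and 15 on other exons, and 11 and 11 in the flanks. The residues overlapped in part: 43 of the H3K18bu regions (48.3%) touched a shared H4K12bu region. In turn, 43 of the H4K12bu regions (48.9%) touched a shared H3K18bu region. No share over all shared regions of the genome is given beside these counts. They and the counts by gene below are therefore not read as particular to these genes. The plot of counts by place shows that SMAD3 and SMAD6 held the most H3K18bu regions and that TGFB1 differed most between the residues, which at q below 0.05 it no longer did.

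**Figure D1:**
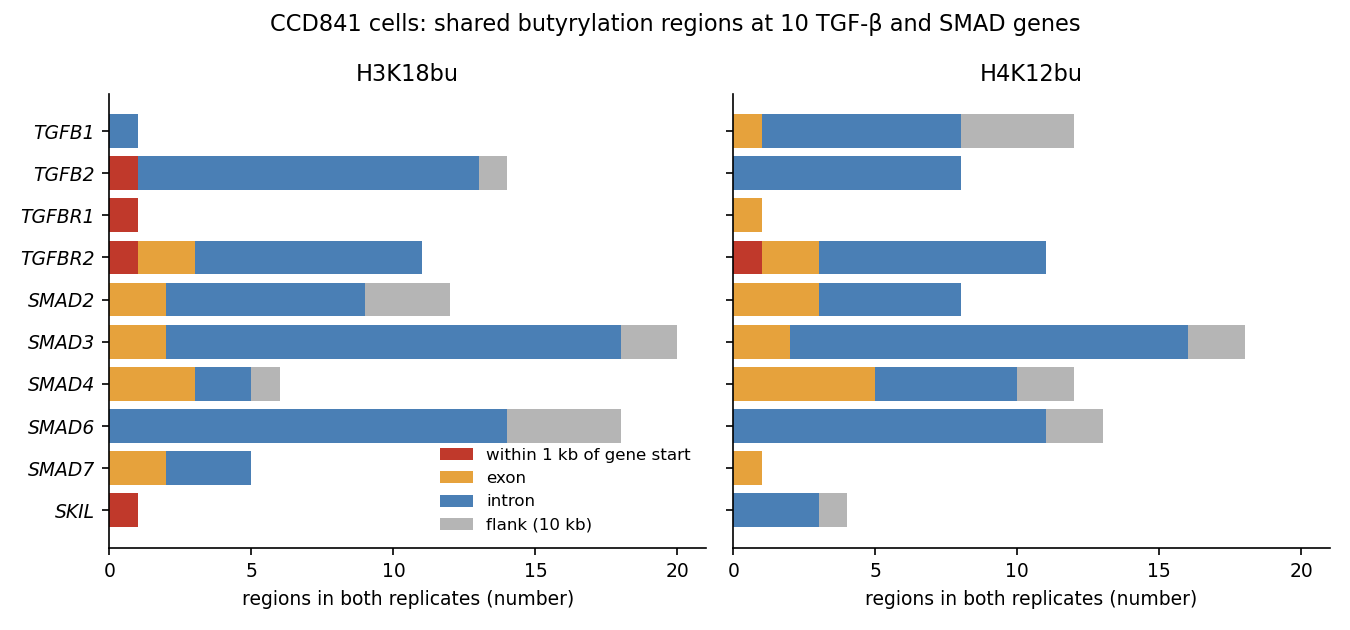
Number of regions shared by both CCD841 replicates at each of the 10 genes (bars, by gene; left H3K18bu, right H4K12bu), coloured by place: within 1 kb of the gene start, other exon, intron or 10 kb flank. SMAD3 held 20 and 18 regions, SMAD6 18 and 13, and TGFB1 1 and 12.

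Of the ligands, TGFB2 was rich in H3K18bu and TGFB1 was not. TGFB2 held 28 and 26 H3K18bu regions in the replicates, of which 14 were shared, and 16 and 21 H4K12bu regions, of which 8 were shared. Its H3K18bu density of 1.17 shared regions per 10 kb stood above 91.6% of the 20033 protein-coding genes, whose median was 0.378, and its H4K12bu density of 0.671 stood near the middle, above 63.0%. TGFB1 held 6 and 3 H3K18bu regions, of which 1 was shared, and 16 and 20 H4K12bu regions, of which 12 were shared, 6 of them with q below 0.05 in both replicates. Its H4K12bu density over all 12, 1.66 per 10 kb, stood above 96.1% of coding genes and its H3K18bu density of 0.138 above 28.0%. These TGFB1 regions were mostly not on the TGFB1 reference transcript, which spans 23.6 kb: 3 of the 12 H4K12bu regions lay inside it and 8 lay over another coding gene, among them B9D2, CCDC97, TMEM91 and HNRNPUL1. The single shared H3K18bu region of the TGFB1 window lay over CCDC97 and outside the TGFB1 transcript. The nearest H3K18bu region of the replicates was 9848 and 27796 bases from the TGFB1 start, and the nearest H4K12bu region 2143 and 1948 bases.

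The receptors differed from each other. TGFBR2, which binds the ligand, held 23 and 20 H3K18bu regions with 11 shared, and 20 and 26 H4K12bu regions with 11 shared. Both densities were 1.02 shared regions per 10 kb, above 87.9% of coding genes for H3K18bu and above 81.7% for H4K12bu. Of the 11 shared regions of H3K18bu at TGFBR2, 6 touched a shared H4K12bu region. TGFBR1, the receptor that phosphorylates the SMADs, held 3 and 5 H3K18bu regions and 4 and 6 H4K12bu regions, with 1 shared for each residue, the H4K12bu one not at q below 0.05 in both replicates. Its density of 0.143 per 10 kb was below the coding median for both residues, and its shared H3K18bu region was the start-site region printed above.

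Among the SMADs that carry the signal, SMAD3 held the most regions. It had 31 and 38 H3K18bu regions with 20 shared, and 44 and 39 H4K12bu regions with 18 shared, of which 11 of each touched the other residue. Its H3K18bu density of 1.32 per 10 kb stood above 94.4% of coding genes and its H4K12bu density of 1.19 above 87.3%. SMAD2, its close relative, had 18 and 17 H3K18bu regions with 12 shared, and 16 and 24 H4K12bu regions with 8 shared, 5 of them with q below 0.05 in both replicates. SMAD2 densities of 0.844 and 0.563 stood above 80.9% and 56.7% of coding genes, lower than those of SMAD3 for both residues. SMAD4, the partner common to both, had 8 and 9 H3K18bu regions with 6 shared, and 19 and 19 H4K12bu regions with 12 shared. Like TGFB1 it ranked higher for H4K12bu, above 95.2% of coding genes at 1.57 per 10 kb, than for H3K18bu, above 77.7% at 0.784 per 10 kb. A second coding gene model without a symbol overlaps SMAD4, and 4 of the 6 and 8 of the 12 regions lay over it as well, although 5 and 10 lay inside the SMAD4 reference transcript.

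The inhibitory SMADs were both dense in H3K18bu. SMAD6 had 27 and 32 H3K18bu regions with 18 shared, and 30 and 27 H4K12bu regions with 13 shared. Its H3K18bu density of 1.79 per 10 kb was the highest of the 10 genes and stood above 98.6% of coding genes. SMAD7 had 11 and 11 H3K18bu regions with 5 shared, and 11 and 6 H4K12bu regions with 1 shared. Its densities of 0.978 and 0.196 per 10 kb stood above 86.5% and 30.9% of coding genes. SKIL, the corepressor, had 3 and 4 H3K18bu regions with 1 shared, and 9 and 10 H4K12bu regions with 4 shared, and so was below the coding median of 0.378 for H3K18bu at 0.168 per 10 kb and above the median of 0.456 for H4K12bu at 0.672. Of these 4 shared H4K12bu regions 2 had a q below 0.05 in both replicates. An exact test of 2 libraries against 2 cannot go below p = 0.333, so the residues were not tested against each other at any gene.

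At start sites H3K18bu was found at more of the genes than H4K12bu. Within 1 kb of the start of the gene a shared H3K18bu region was present at 4 of 10 genes, TGFB2, TGFBR1, TGFBR2 and SKIL, where 31.3% of protein-coding genes and 19.6% of all genes have one. A shared H4K12bu region was present at TGFBR2 only, where 14.7% of coding genes and 11.5% of all genes have one. Neither share of 10 genes stood far from its background. The difference in count between the residues at these genes matches the direction of the backgrounds.

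At the TGFBR1 start the shared H3K18bu region was chr9:99104500-99105179, with pileups of 23 and 18 in the replicates and folds over local background of 8.22 and 7.0. The TGFBR2 region was chr3:30606256-30607031, with H3K18bu pileups of 21 and 22 and folds of 6.50 and 7.45. TGFBR2 also had the H4K12bu region chr3:30606310-30606702, with pileups of 15 and 9 and folds of 6.29 and 5.17. The TGFBR2 region lay over the start of the gene and the TGFBR1 region 462 and 546 bases inside it, and the pileups of each were close in the replicates. The TGFB2 region, chr1:218344890-218345210, had pileups of 17 and 21 and ended before the start. The SKIL region, chr3:170357390-170357758, had pileups of 10 and 9. SKIL was the weakest of the 4. TGFB2 also had an H4K12bu peak near its start in each replicate, with pileups of 13 and 6, but the peaks did not overlap and are not counted as shared.

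The start of the longest annotated extent of a gene is not always the start in use. With the MANE Select start in its place, a choice made after the regions had been seen, a shared H3K18bu region was present at 5 of 10 genes, SMAD4 being added, where 33% of coding genes have one. The SMAD4 region, chr18:51030020-51030492, had pileups of 13 and 10 and lay over the MANE Select start, 1685 bases inside the longest extent. H4K12bu remained at 1 of 10 by this start, where 14.9% of coding genes have one. Counting the start of any annotated transcript, 8 genes had H3K18bu and 6 had H4K12bu, where 44% and 35.4% of coding genes do, so the count depends on which transcripts are taken.

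The genes without a start-site region had their nearest regions at different distances from the MANE Select start. For SMAD3 the nearest H3K18bu region was 1932 and 27 bases away in the replicates, so that a region lay near the start in the second only. For SMAD2 it was 4409 and 456 bases away. For SMAD6 it was 3594 and 3635 bases away and for SMAD7 1085 and 2059 bases. SMAD6, the gene densest in H3K18bu, therefore had none near its start in either replicate.

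**Figure D2:**
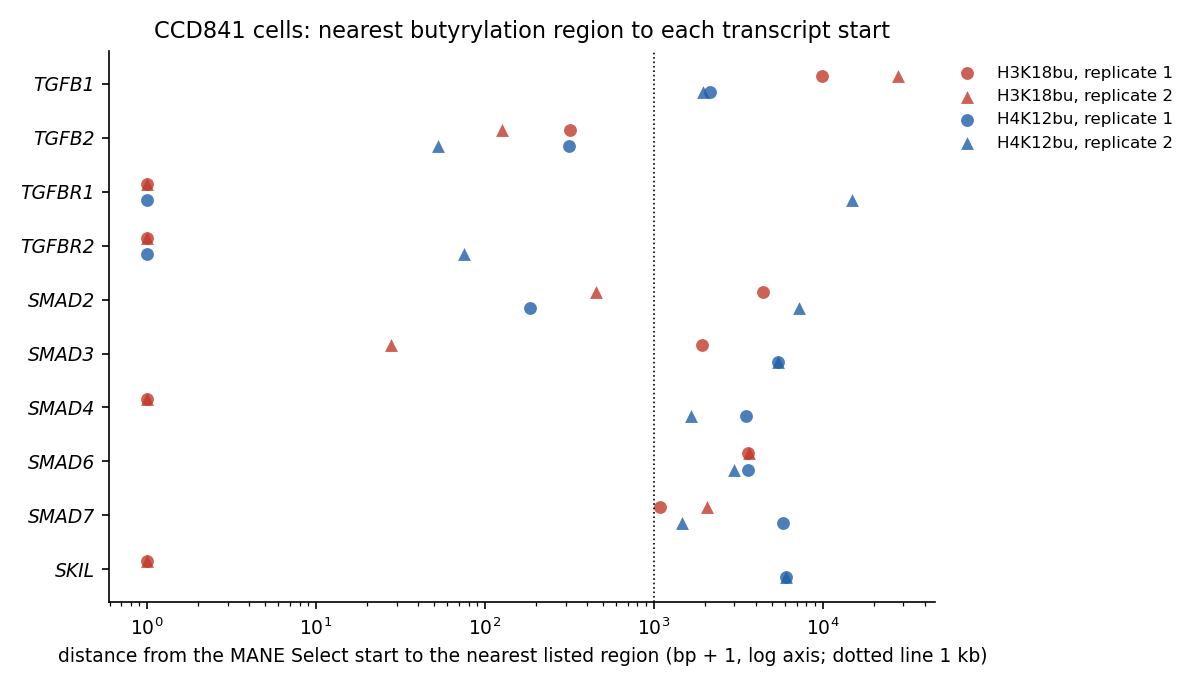
Distance in bases from the MANE Select start of each gene to the nearest H3K18bu and H4K12bu region (points, 1 per CCD841 replicate; logarithmic axis of distance + 1; the dotted line marks 1 kb). TGFBR1, TGFBR2, SMAD4 and SKIL had an H3K18bu region over the start in both replicates, while the TGFB1 regions were 9848 and 27796 bases away.

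The strongest shared regions lay inside genes and not at starts. The SMAD3 intron held chr15:67178331-67179362, with H3K18bu pileups of 60 and 68, folds of 7.32 and 7.86 and −log10 p of 34.1 and 40.1, the printed sequence being its centre. Ranked by the lower −log10 p of the replicates, 0.252% of the 108536 shared H3K18bu regions of the genome were stronger. A second SMAD3 intron region, chr15:67105292-67105963, had pileups of 80 and 81, with 0.293% of regions stronger. Another, chr15:67125074-67126052, overlapped an exon of SMAD3 and had pileups of 60 and 50. SMAD3 thus held the 3 strongest H3K18bu regions of the 10 genes, and an intron region of TGFB2, chr1:218380540-218380789 with pileups of 36 and 30, came next.

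The strongest shared H4K12bu region of the 10 genes lay on an exon of SMAD4, chr18:51051083-51051364, with pileups of 29 and 16, and 0.571% of the 90476 shared H4K12bu regions were stronger. An intron region of SMAD6, chr15:66726158-66726689, had pileups of 40 and 20, and an intron region of TGFBR2, chr3:30659328-30659815, had 25 and 16. The fourth was chr15:67178390-67179157 in SMAD3, with pileups of 43 and 21. This last region lay inside the strongest H3K18bu region, so that the same stretch of the SMAD3 intron was among the strongest for both residues. Over all shared regions of the 10 genes the median lower −log10 p was 7.01 for H3K18bu and 4.74 for H4K12bu, against 6.51 and 4.73 over the genome.

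**Figure D3:**
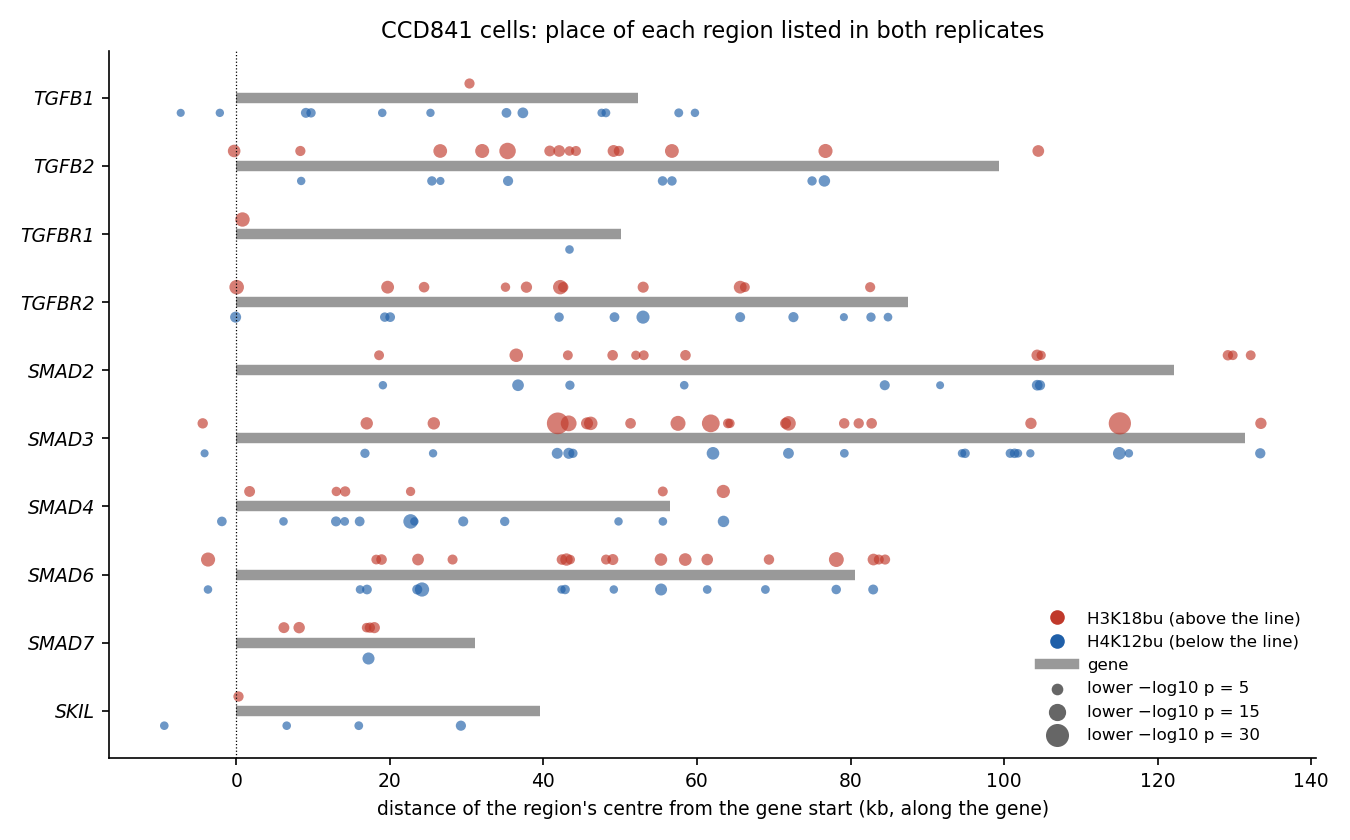
Shared regions along each of the 10 genes in CCD841 cells, drawn by the distance of their centre from the gene start in kb along the gene (H3K18bu above and H4K12bu below the grey bar that is the gene; larger points have a higher lower −log10 p of the replicates). SMAD3, SMAD6, TGFB2, TGFBR2, SMAD2 and SMAD4 carry regions of both residues at several places along the gene, while TGFBR1 and SKIL carry few.

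The 50 other genes of a fixed list of the pathway held shared H3K18bu regions in all 50 windows and at 22 start sites, and H4K12bu in 44 windows and at 5 start sites. These are 22 and 5 start sites of 50, beside 31.3% and 14.7% of all coding genes. By role, H3K18bu start-site regions were found at 7 of 11 target genes, 4 of 9 receptors, 5 of 12 inhibitors and cofactors, 3 of 8 genes of matrix and activation, 2 of 7 ligands and 1 of 3 further SMADs. H4K12bu start-site regions were at 0 of the 11 target genes, and both counts are of too few genes to be read against these shares. By the lower −log10 p of the replicates the strongest H3K18bu start-site regions were at BAMBI, a decoy receptor (−log10 p of 19.6 and 15.9), CCN2, a secreted matrix protein induced by TGF-β (15.4 and 12.5), and BMPR2, a receptor for bone morphogenetic proteins (11.4 and 12.6). For H4K12bu they were at INHBA, the activin A subunit, LTBP1, which holds latent TGF-β in the matrix, and THBS1, which can release it.

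In mouse large intestine the lists were far shallower, and this bears on every count. Peaks numbered 60813 and 50675 in the H3K18bu libraries and 50932 and 96432 in the H4K12bu libraries, and between 89.2% and 91.4% of them had a pileup of 1. Each Kac list stopped at the limit, with 299623 to 299861 peaks. In each Kac list many peaks were tied at the lowest p of the list with a pileup of 1: 72.1% and 52.0% of the H3K18ac peaks and 52.8% and 12.8% of the H4K12ac peaks. They were all the Kac peaks with a pileup of 1, so a Kac list without them holds pileups of 2 or more, while the Kbu lists hold mostly pileups of 1. These tied peaks were listed only on the chromosomes that come first in text order, which starts 1, 10, 11: on all but X and Y in the first H3K18ac list, and on chromosome 1 alone in the second H4K12ac list. Tgfb2 is on chromosome 1 and the other 9 genes are not. The total of reads is not in the lists, and in tissue fewer cells with a mark and less of the mark per cell cannot be told apart.

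**Figure D4:**
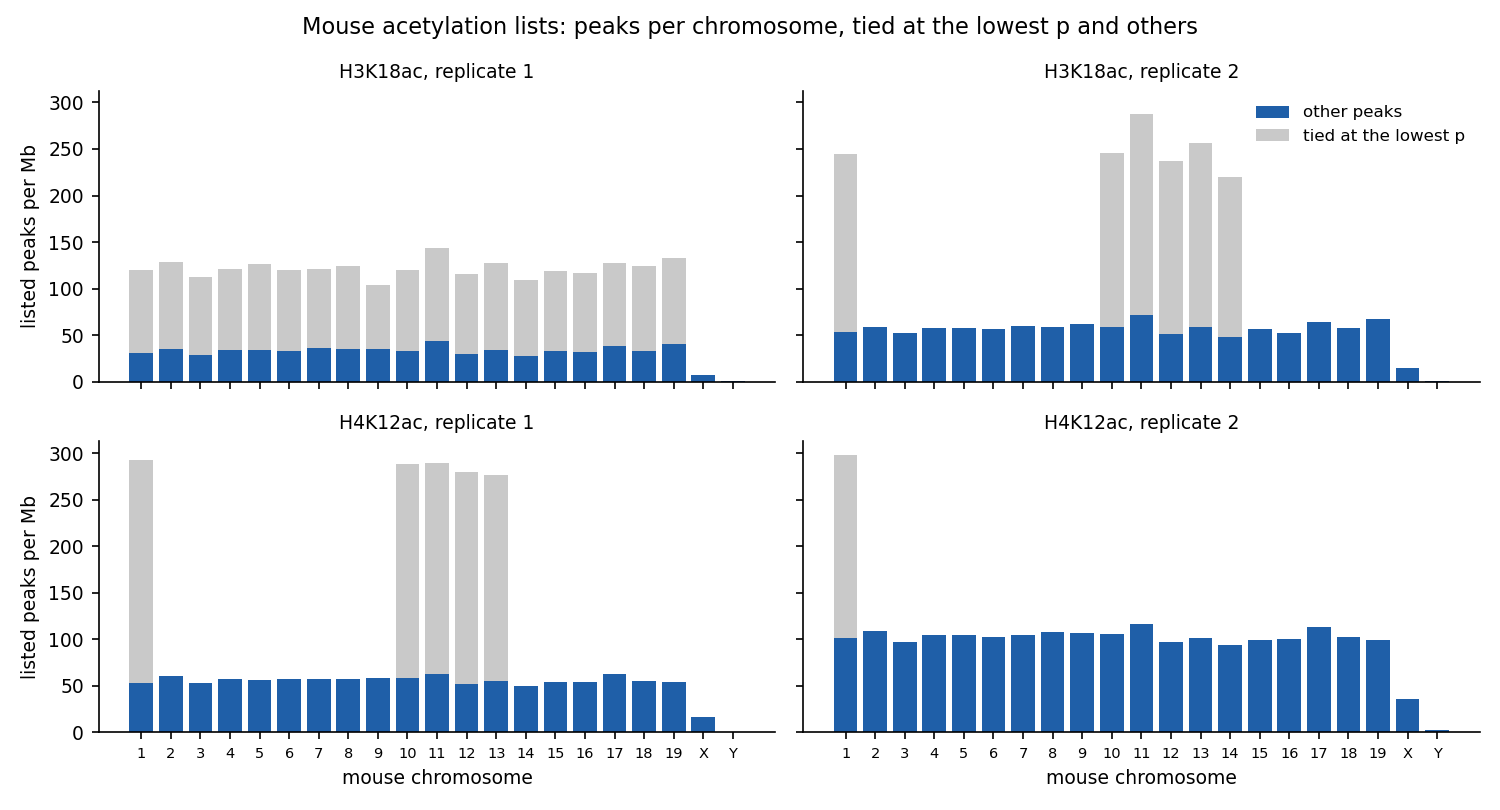
Listed peaks per Mb (bars) on each mouse chromosome in the 4 Kac libraries (panels), split into peaks with the lowest p of the list, which tie with each other (grey) and all others (blue). All 4 libraries have tied peaks on chromosome 1, and in the second H4K12ac library they are on chromosome 1 only.

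Epithelial marker genes had the highest share in the mouse Kbu lists but not in both Kac lists. A shared H3K18bu region was present at 10 of 12 epithelial genes, 1 of 10 mesenchymal, 0 of 5 smooth muscle, 0 of 6 immune and 2 of 4 endothelial genes, and the H4K12bu counts were 9 of 12, 3 of 10, 2 of 5, 0 of 6 and 2 of 4. H3K18ac was shared at 12 of 12 epithelial, 2 of 10 mesenchymal, 3 of 5 smooth muscle, 4 of 6 immune and 4 of 4 endothelial genes, and H4K12ac at 9, 4, 4, 3 and 1. The share of cell types in each tissue sample and its part in the results below were not tested.

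Shared H3K18bu regions were present at 5 of the 10 mouse genes, Tgfbr2, Smad3, Smad4, Smad6 and Smad7, where 20.5% of protein-coding genes have one. Shared H4K12bu regions were present at 4, Smad3, Smad6, Smad7 and Skil, where 33.7% do. H3K18ac was shared at 9 genes, all but Tgfbr1, and H4K12ac at 8, all but Tgfb1 and Skil, where 58.7% and 61.4% of coding genes have one. Among all genes of the annotation the shares were 14.4% (H3K18bu), 21.9% (H4K12bu), 46.4% (H3K18ac) and 46.7% (H4K12ac). Long genes have more room for a region. Of coding genes of like length, taken without flanks, between 20.3% (for Tgfb1) and 35.2% (for Smad3) held shared H3K18bu. The shares were 37.5% to 45.9% for H4K12bu, 62.8% to 83.4% for H3K18ac and 65.1% to 87.8% for H4K12ac. The regions were 9 and 6 for the Kbu marks and 25 and 25 for the Kac marks.

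Of these 9 H3K18bu regions 3 lay at an end of the gene. They are shown for the pair of genes whose promoter sequence is in the RefSeq table, in GRCm38.p6, with capitals for the bases inside H3K18bu regions of both mouse libraries.
Smad3, chr9:63757945-63758244, minus strand: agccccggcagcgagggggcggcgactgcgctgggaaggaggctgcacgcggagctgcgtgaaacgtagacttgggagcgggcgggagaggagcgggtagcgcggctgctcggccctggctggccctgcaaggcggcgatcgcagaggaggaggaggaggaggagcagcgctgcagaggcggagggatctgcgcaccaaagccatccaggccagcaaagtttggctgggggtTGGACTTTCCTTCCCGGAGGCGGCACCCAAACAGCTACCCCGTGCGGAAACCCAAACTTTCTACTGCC
Tgfbr2, chr9:116175314-116175613, minus strand: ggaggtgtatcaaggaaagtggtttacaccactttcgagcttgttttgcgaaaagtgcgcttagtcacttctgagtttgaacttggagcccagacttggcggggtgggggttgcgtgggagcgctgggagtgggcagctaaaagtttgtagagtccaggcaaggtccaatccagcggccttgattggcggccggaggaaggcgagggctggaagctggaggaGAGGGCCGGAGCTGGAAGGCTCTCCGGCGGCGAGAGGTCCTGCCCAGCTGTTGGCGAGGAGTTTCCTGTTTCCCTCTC
The Smad3 region, chr9:63757837-63758289, had pileups of 2 and 1. The Tgfbr2 region, chr9:116175220-116175414, had pileups of 1 and 1.

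The region at Smad4, chr18:73703755-73703947, had pileups of 1 and 1 and lay at an end of the gene, whose strand the table does not give. A pileup of 1 carries a counting error as large as itself. None of the 15 shared Kbu regions had a pileup of 2 or more in both replicates, and none had a q below 0.05 in both.

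Inside Smad3 a second shared H3K18bu region, chr9:63746202-63746526, had pileups of 1 and 1. It lay within the strongest acetyl region of the 10 genes, the H3K18ac region chr9:63746152-63746707, whose pileups were 10 and 11 and folds 7.28 and 7.0. Only 0.213% of the 43739 shared H3K18ac regions were stronger. An H4K12ac region with pileups of 4 and 4, chr9:63746472-63746790, overlapped the same stretch, so that 3 of the 4 marks were listed there in both replicates. The strongest H3K18bu region of the 10 genes in CCD841 cells and the strongest H3K18ac region in mouse intestine were thus inside SMAD3 and Smad3. They lay at different places, 115 kb from the gene start in human and 11.6 kb from it in mouse. The gene also has the longest window of the 10 in both species, 151 kb and 131 kb, and so the most room for a region. Whether the 2 stretches correspond was not tested.

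At Smad6 both shared H3K18bu regions, chr9:63988424-63988655 and chr9:63999310-63999542, had pileups of 1 and 1 and touched an H3K18ac region of each replicate. At Smad7, 1 of 3, chr18:75387374-75387927 with pileups of 1 and 2, met a shared H3K18ac region with pileups of 6 and 7 and a shared H4K12ac region with 3 and 3. In all, 7 of the 9 H3K18bu regions touched an H3K18ac region of at least 1 replicate and 4 touched one in both, while 3 of the 6 H4K12bu regions touched H4K12ac in at least 1 replicate and 0 in both. No share over all shared Kbu regions is given here, so these counts are not read as particular to these genes. Near gene starts the acetyl marks were shared at Tgfb1 (H3K18ac, pileups of 2 and 3), Tgfbr2 (H3K18ac 5 and 6, H4K12ac 3 and 5) and Smad6 (H4K12ac 3 and 4). Among coding genes with a known strand 6.23% had a shared H3K18bu region within 1 kb of the start, 15.4% H4K12bu, 21.9% H3K18ac and 25.3% H4K12ac.

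The study compared Kbu with Kac for each residue apart. Here the H3K18 and H4K12 libraries were pooled, as 4 Kbu against 4 Kac libraries. The value compared was the number of regions at a gene per 100000 regions of its list. The 4 libraries of each group came from no more than 2 mice if the labels hold, so p-values over libraries are too small for a comparison of animals. At Smad7 the values were 16.5 and 17.8 in the H3K18bu libraries, 3.93 and 11.4 in the H4K12bu libraries, 3.01 and 3.02 in the H3K18ac libraries and 3.01 and 3.36 in the H4K12ac libraries. Every Kbu library stood above every Kac library, though the lowest, the first H4K12bu library with 2 regions, stood close to them. The means were 12.4 ± 6.27 in Kbu and 3.10 ± 0.173 in Kac (SD, n = 4 libraries each; exact permutation p = 0.0286, two-sided and the lowest value that 4 against 4 allows; adjusted p = 0.199).

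At Smad6 the values were 14.8 and 15.8 (H3K18bu), 7.86 and 10.4 (H4K12bu), 4.35 and 5.36 (H3K18ac) and 5.01 and 5.04 (H4K12ac). The groups again did not overlap, with 12.2 ± 3.74 in Kbu and 4.94 ± 0.423 in Kac (SD, n = 4 each; exact permutation p = 0.0286, adjusted p = 0.199). Unscaled, its Kbu libraries held 9, 8, 4 and 10 regions and its Kac libraries, from longer lists, 13, 16, 15 and 15. At Skil the values were 8.23 and 5.92 (H3K18bu), 3.93 and 6.23 (H4K12bu), 3.01 and 2.68 (H3K18ac) and 2.67 and 3.02 (H4K12ac). The groups did not overlap, with 6.08 ± 1.76 in Kbu and 2.85 ± 0.198 in Kac (SD, n = 4 each; exact permutation p = 0.0286, adjusted p = 0.199). Unscaled, Skil had 5, 3, 2 and 6 regions in the Kbu libraries and 9, 8, 8 and 9 in the Kac libraries.

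Scaled to list length, these 3 of the 10 genes had all Kbu libraries above all Kac libraries, and 0 had all below. By the same scaled value, 8.78% of the 47102 mouse genes tested had all Kbu libraries higher and 5.58% had all lower. Smad6, Smad7 and Skil lie on chromosomes 9, 18 and 3, which held tied peaks in the first H3K18ac list only. Their Kac numbers are scaled to list totals that include ties on other chromosomes. The genes were not matched for chromosome, so 3 of 10 and 8.78% are not a like comparison. Unscaled, every Kbu library stood below every Kac library at Smad6 and Skil, and the groups overlapped at Smad7. The lowest exact permutation p that 4 against 4 libraries allow, 0.0286, passes adjustment over all genes only if most of them reach it. A count of 0 was therefore nearly fixed by the number of libraries and does not show that differences are absent. After adjustment over all genes tested, 0 passed by the exact permutation test (0% of those tested in either direction), and limma called 2870. At an unadjusted exact permutation p under 0.05, 4137 genes were higher and 2628 lower in Kbu. This unadjusted split of the exact test was 10 higher and 11705 lower unscaled, and 793 and 10557 at a pileup of at least 2. It was 49 and 2977 at q below 0.05, and 1161 and 923 without the tied peaks. None of the 10 genes passed by limma, where the lowest adjusted p was 0.0752 for Smad7. With the tied Kac peaks removed, which changes the Kac lists only and so leaves the groups unlike in pileup, the groups overlapped at Smad6, Smad7 and Skil: the Kac means became 9.64, 6.86 and 4.90 and the Kbu means did not move. Counting only pileups of 2 or more in Kbu and Kac alike, Smad6 had no Kbu region left, since all its Kbu regions had a pileup of 1, and no comparison can be made there. At Smad7 and Skil the difference was 11.4 and 4.02 (exact permutation p = 0.143 and 0.429, adjusted p = 0.329 and 0.641). Few Kbu regions were left there, and none in some libraries. At Smad7 8 of 10 and 8 of 9 H3K18bu regions and 2 of 2 and 9 of 11 H4K12bu regions had a pileup of 1. At Skil these were 4 of 5 and 3 of 3 H3K18bu regions and 2 of 2 and 4 of 6 H4K12bu regions. Without the tied peaks 2.52% of all genes had every Kbu library higher and 2% every Kbu library lower, and limma called 0 of 46073 (4056 at an unadjusted p under 0.05). At Smad6 the removal of ties took 4 regions from the first H3K18ac library and 0 from the other Kac libraries, so its Kac values rose as the totals of the lists shrank.

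Smad3 had values of 29.6 and 11.8 (H3K18bu), 23.6 and 19.7 (H4K12bu), 6.70 and 5.70 (H3K18ac) and 4.34 and 12.8 (H4K12ac). The lowest Kbu library stood just below the highest Kac library, and the means were 21.2 ± 7.44 and 7.37 ± 3.72 (SD, n = 4 each; exact permutation p = 0.0571, adjusted p = 0.303). Without the tied peaks the Kac mean became 14.4 ± 5.42 (SD, n = 4), and with pileups of 2 or more alone in Kbu and Kac alike the difference was 0.24.

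Tgfb2 was the gene with the largest difference in the other direction, and it is the gene on chromosome 1. Its windows held 26, 61, 37 and 53 regions in the H3K18ac and H4K12ac libraries and 2, 5, 3 and 1 in the H3K18bu and H4K12bu libraries. Per 100000 regions the means were 14.8 ± 5.29 in Kac and 5.02 ± 3.79 in Kbu (SD, n = 4 each; exact permutation p = 0.0571, adjusted p = 0.303). Without the tied peaks the acetyl libraries held 2, 2, 4 and 12 regions there. The Kac mean became 2.82 ± 1.35, below the Kbu mean of all peaks. All Kbu regions at Tgfb2 had a pileup of 1, so at pileups of 2 or more no Kbu region was left to compare.

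The other 5 genes had overlapping groups and differences between −0.94 and 5.06 regions per 100000, with adjusted p between 0.476 and 1.0 by the exact permutation test. The median difference was 2.60 over the 10 genes, 7 higher in Kbu and 3 lower, against 0.0081 over all genes tested. Without the tied peaks it was 0.583, 5 higher and 5 lower, against −0.096. The genes were not matched for length or number of regions, and a gene with few regions can differ little on this scale. The medians are therefore not read as a shift of the 10 genes. The regions at all 10 genes summed to 82.1 ± 12.6 per 100000 in Kbu and 53.1 ± 12.0 in Kac (SD, n = 4 each), a difference of 29.0 that was 9.67 without the tied Kac peaks and −14.0 when pileups of 1, most of the Kbu peaks, were left out of Kbu and Kac alike. Among regions with a q below 0.05 the difference turned to −53.4, where 3 of the 4 Kbu libraries had no region at these genes.

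**Figure D5:**
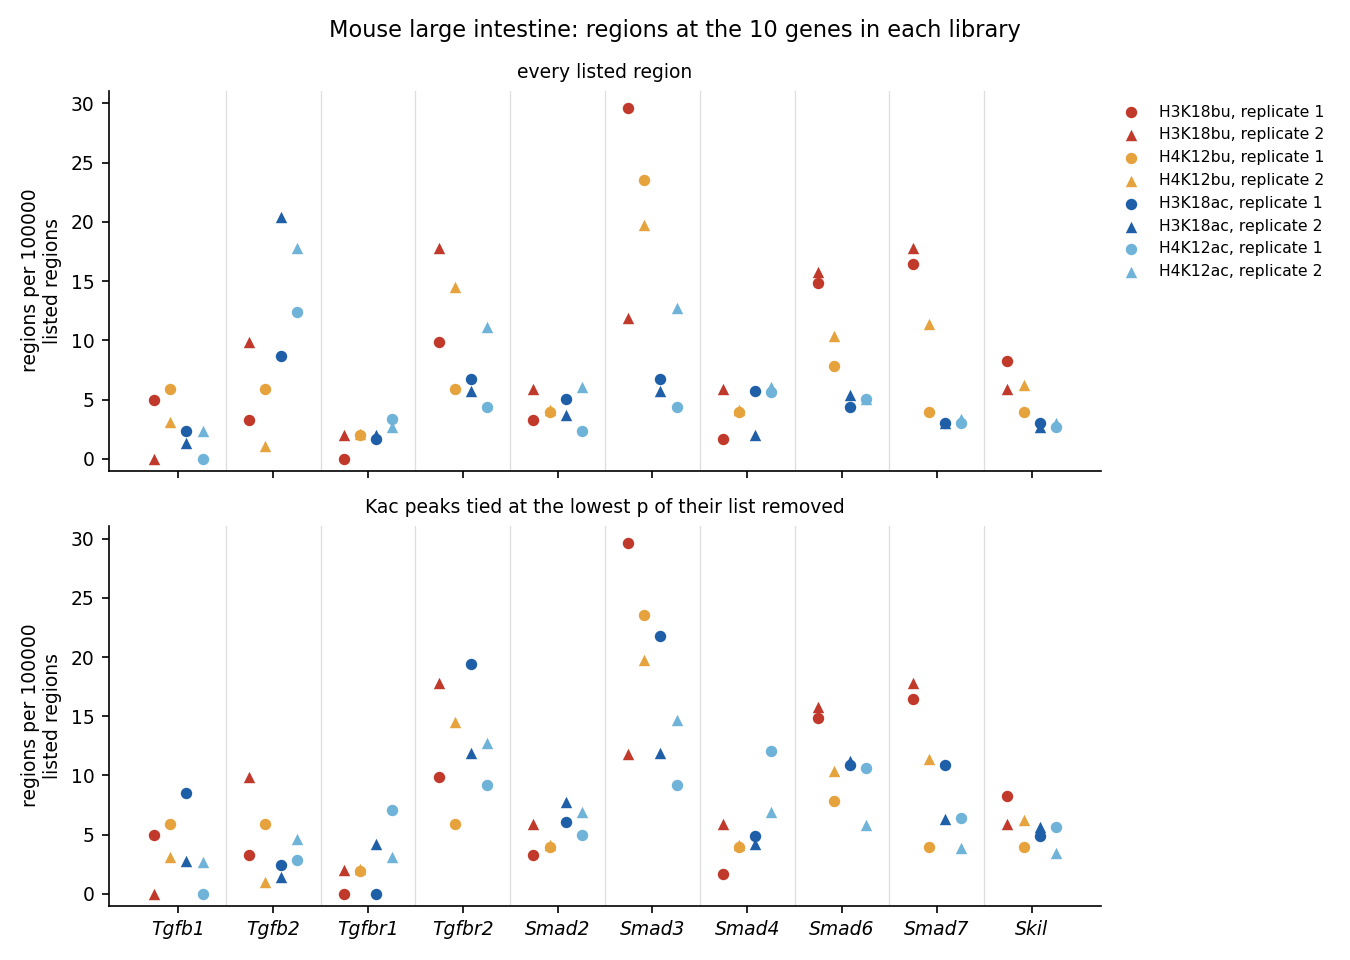
Regions per 100000 listed regions at each mouse gene in the 8 libraries (points; colour gives the mark and shape the replicate), with every listed region in the upper panel and without the tied Kac peaks in the lower, where only the Kac lists are changed. At Smad6, Smad7 and Skil the Kbu and Kac points are apart in the upper panel and overlap in the lower, and at Tgfb2 the Kac points drop from between 8.71 and 20.4 to between 1.40 and 4.63.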

How the data were processed

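Reads of 12 CUT&Tag libraries were processed by the submitters, whose notes name bcl2fastq 2.17.1, cutadapt 1.9.1, Bowtie2 2.3.1, MACS2 2.1.0 and the builds hg38 and mm10, and who called peaks in each library alone, without a control library, at p below 0.01 with a limit of 300000 peaks. The authors deposited for each peak a ratio, its fold over the background around it in that library. The authors also deposited a −log10 p-value and a −log10 q-value for each peak. These values rank peaks within a list. The lists hold no read counts, so the authors' comparison of reads could not be repeated.

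The pileup of each peak was solved from its fold and p. Overlapping peaks were merged to regions, and a region was shared when the replicates overlapped by 1 bp. Genes came from GENCODE 44 (GRCh38) and RefSeq (GRCm38.p6, which is mm10), the latter without a strand for Skil, Smad2, Smad4 and Smad7, whose gene ends both counted as a start. Human promoters were read from GRCh38 at MANE Select starts and mouse promoters from the RefSeq table, which held 6 of the 10 genes. Motifs were searched on both strands, namely GTCTAGAC, CAGACA (in 14.2% of human and 21.0% of mouse promoters), GGGCGG (62.2% and 35.7%) and TGANTCA. No overlapping matches were merged.

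Regions per 100000 listed regions were compared between 4 Kbu and 4 Kac libraries by two-sided exact permutation over 70 assignments for every gene with a region in any library, with Benjamini-Hochberg adjustment over all of them. limma 3.58.1 in R 4.3.3 on log2(value + 0.5) was an alternative. The tests were tested on simulated data. Start-site counts of the immune markers are not reported here. All 10 genes are named, and of the 50 other pathway genes the 3 per mark, with a region shared at the start (CCD841) or in the window (mouse), whose weaker replicate had the highest −log10 p. The genes and lists were chosen with earlier results of these data known, and the MANE Select starts and limma without tied peaks after the values had been seen. Scripts ran in Python 3.11.15 with scipy 1.17.1, numpy 2.4.6, matplotlib 3.10.9 and pandas 2.3.3.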

Additional observations from a re-analysis of the deposited data

How the results depend on the processing

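The lists give called peaks and no reads, so a missing region means only that none was called at the depth of that library. In CCD841 cells the 4 genes with an H3K18bu start-site region stayed between 4 and 5 under 9 of 10 alternatives and were 8 with the start of any annotated transcript. The single gene with H4K12bu there became 3 with a window of 3 kb, 6 with any transcript, 5 with a region in either replicate and 3 to 4 with a single replicate. The 89 and 88 shared regions became 222 and 278 with a region in either replicate and 158 to 165 and 185 to 198 with a single replicate, and the H4K12bu count was 38 at q below 0.01.

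In mouse, the 5 genes with shared H3K18bu and the 4 with shared H4K12bu were 0 and 0 at q below 0.05, 0 and 0 at a pileup of at least 2, 10 and 10 with a region in either replicate, and 9 and 10 with either single replicate. The H4K12bu count was 2 with lists of equal length (their strongest regions), 2 with an overlap of at least 50% of the shorter region and 2 without flanks. The H3K18ac count was 3 at q below 0.05 and 3 with lists of equal length, and the H4K12ac count was 1 and 0.

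The summed difference of Kbu minus Kac, 29.0 regions per 100000, was −53.4 at q below 0.05, −14.0 at a pileup of at least 2 and −105.8 regions when unscaled. It was 7.90 with lists of equal length, 9.67 without the tied peaks, and 23.7 to 34.3 with a single replicate. By gene, the difference at q below 0.05 was −0.42 (Tgfb1), −7.75 (Smad2), −15.0 (Smad3), −7.94 (Smad6), −8.78 (Smad7) and −6.91 (Skil). No Kbu region at these genes had a q below 0.05, so these values are the Kac means with a minus sign and compare nothing. With lists of equal length the difference turned to 2.47 (Tgfb2), −2.96 (Tgfbr2) and −3.46 (Smad2). At a pileup of at least 2, which removes 89.2% to 91.4% of each Kbu list, it turned to −3.94 (Tgfbr2). Tgfb1, Smad2 and Smad6 had no Kbu region left at that pileup. Their values of −3.50, −6.42 and −9.64 are therefore the Kac means with a minus sign and compare nothing. Without the tied peaks, a change of the Kac lists alone, the difference turned to −0.011 (Tgfb1), 2.20 (Tgfb2), −1.30 (Tgfbr2) and −2.10 (Smad2), and by limma without them to log2 values of 0.51 (Tgfb2), −0.20 (Tgfbr2) and −0.53 (Smad2). Unscaled, the difference turned to −2.25 (Tgfb1), −12.8 (Tgfbr2), −10.0 (Smad2), −8.25 (Smad3), −7.0 (Smad6), −1.25 (Smad7) and −4.5 (Skil). Unscaled numbers set Kac lists of 297745 to 299480 regions against Kbu lists of 50645 to 96332. Over all genes 10 were then higher and 11705 lower in Kbu at an unadjusted exact permutation p under 0.05. Leaving out a replicate gave −0.29 without replicate 1 to 4.24 without replicate 2 (Tgfb1), 1.01 to −2.90 (Smad4) and 0.172 to −0.071 (Smad2). Every cause other than the removal of peaks or libraries itself was not tested.

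Of the 47102 mouse genes the exact permutation test called 0, limma 2870 and limma with the replicate number as a replicate block 1178. The exact test could call a gene only if most genes reached its lowest p. The exact test with a replicate block called 0, and its smallest p is 0.0556. The numbers gave no sign of pairing: the correlation of same-numbered deviations lay between −0.014 and 0.037 in mouse and was 0.043 in CCD841 cells. In mouse only 10.6% to 20.0% of the regions of a list overlapped the other replicate, so the correlation may be low with or without pairing. The check therefore cannot tell whether mouse libraries share mice.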

Other observations

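The share of regions that overlapped the other replicate was higher at the 10 genes than in the whole list in 9 of the 12 libraries, by the most percentage points in the second CCD841 H4K12bu library. In CCD841 cells 60.1% and 57.6% of the H3K18bu regions at these genes overlapped the other replicate, against 54.7% and 52.5% of all regions, and for H4K12bu the shares were 48.6% and 52.0% against 45.0% and 37.6%. In mouse intestine the shares were 16.1% and 19.1% against 14.0% and 16.8% for H3K18bu, and 17.6% and 8.11% against 20.0% and 10.6% for H4K12bu. For the acetyl marks they were 18.4% and 18.1% against 15.4% and 16.0% for H3K18ac and 21.7% and 12.4% against 15.5% and 15.1% for H4K12ac.

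Of the 50 other pathway genes in mouse intestine, 19 held shared H3K18bu, 25 H4K12bu, 44 H3K18ac and 39 H4K12ac regions, where 20.5%, 33.7%, 58.7% and 61.4% of all coding genes do. The genes were not matched for length. The genes named are the 3 per mark with the highest value in the weaker library, among those with a shared region, and the values are the highest of each library anywhere in the window. For H3K18bu they were at Nedd4l, a ubiquitin ligase that limits SMAD signalling (−log10 p of 5.95 and 5.39, in a window of 353 kb), Tgfbi, a secreted matrix protein induced by TGF-β (4.87 and 4.87), and Pmepa1, a TGF-β target that limits SMAD signalling (4.50 and 5.95, tied in the weaker library with Thbs1 and Tgif1). For H4K12bu they were at Acvrl1, a receptor of endothelial cells (7.07 and 7.79), Pmepa1 (5.39 and 6.33) and Ski, a corepressor related to Skil (5.39 and 5.39). For H3K18ac they were at Nedd4l (14.5 and 14.8), Tgfbi (22.2 and 11.8) and the activin receptor gene Acvr2a (7.40 and 7.16). For H4K12ac they were at the receptor gene Acvr1 (6.58 and 9.15), the decoy receptor gene Bambi (5.76 and 6.05) and Ltbp4, which binds latent TGF-β (5.64 and 6.51).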
